A study of Danio rerio with 6 samples.

Results

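Calcium uptake genes of ionocytes were followed through 6 RNA-seq libraries of sorted zebrafish cells. The set held 10 genes, found by exact gene name among the 32059 rows of the count table. They are trpv6, slc8a1b, slc8a1a, atp2b1a, atp2b1b, atp2b2, igfbp5a, igfbp5b, casr and stc1. The genes were picked with the pax2a-high and pax2a-low values of these same libraries in view, so their difference between the groups is a description and carries no test.

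The libraries came from fish aged 5 months and labelled as thyroid follicular cells, the epithelium that makes thyroglobulin. All fish carried Tg(tg:nls-EGFP), a nuclear green reporter under the thyroglobulin promoter, together with the pax2a:mKO2 knock-in, an orange reporter at the pax2a locus. Cells were sorted by mKO2 brightness into pax2a-high (mKO2-high) and pax2a-low (mKO2-low) populations, with 3 libraries each, and the labels name no treatment. The sources used here do not give whether the sort also gated on EGFP. Nor do they state whether the replicates came from separate fish or pools, so the spread between them may be technical.

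In fish, calcium enters the body from the water through ionocytes, mitochondria-rich cells of the skin and gills. Calcium passes an apical epithelial channel, Trpv6, and leaves on the blood side through a plasma membrane calcium pump and a sodium-calcium exchanger. Hormones such as stanniocalcin and the calcium-sensing receptor set the rate. In zebrafish, igfbp5a encodes a secreted insulin-like growth factor (IGF) binding protein that marks the calcium-transporting class of ionocytes.

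Depth was 18014891 to 35403210 counts in pax2a-high libraries, against 6053741 to 10932845 counts in pax2a-low libraries. A floor of 3 counts corresponded to 0.0842 to 0.183 CPM (counts per 1000000 counts, with libraries scaled by TMM) in pax2a-high and to 0.234 to 0.578 CPM in pax2a-low libraries. Of the 31 counts above 0 that the chosen genes had, 29 were even. If both reads of a pair were counted, counting intervals are too narrow, and floors and intervals describe counting error alone. Neither the sort gene pax2a nor the mKO2 reporter was called by edgeR (adjusted p of 0.595 and 0.344). The level of pax2a was 303, 431 and 579 CPM in pax2a-high, against 2.31, 1.24 and 157 CPM in pax2a-low libraries. Pax2a-low replicate 3 thus stood apart from the other pax2a-low libraries, and thyroglobulin (tg) took 3.80% of its counts against 0.398 to 0.454% in the other two.

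Marker sums of the labelled and of some other cell types moved with the groups. The summed level of 8 thyroid follicular markers was 158281 to 240441 CPM in pax2a-high, against 3598 to 32750 CPM in pax2a-low libraries. Nearly all of this was tg, at 199031, 157414 and 238990 CPM in pax2a-high, against 5295, 3554 and 32404 CPM in pax2a-low libraries. By edgeR, 1 of the 7 tested thyroid markers was called higher (slc5a5) and 0 lower, and tg did not pass (edgeR adjusted p = 0.118). Shared ionocyte markers (foxi3a, foxi3b and atp1b1b) summed to 0.101 to 0.225 CPM in pax2a-high libraries, at or near 0, and to 2690 to 3188 CPM in pax2a-low libraries. Most of the pax2a-low sum was atp1b1b, at 2401, 2226 and 2930 CPM. By contrast, foxi3a had 36, 210 and 0 counts in pax2a-low libraries. Of the 5 macrophage markers, all 5 were detected in both groups, with sums of 6.79 to 92.2 CPM in pax2a-high, against 494 to 1039 CPM in pax2a-low libraries. By edgeR, 0 of the 3 tested macrophage markers were called in either direction. Mitochondrially encoded rows took 0.799 to 1.17% of counts in pax2a-high, against 24.1 to 49.0% in pax2a-low libraries. In bulk samples, fewer cells of a type and less RNA per cell cannot be told apart, and the part of these shifts in the gene values that follow was not tested.

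Of the 10 genes, trpv6, slc8a1b, atp2b1a and igfbp5a were lower in each pax2a-high library than in any pax2a-low library, and igfbp5b overlapped between the groups. The remaining 5 (slc8a1a, atp2b1b, atp2b2, casr and stc1) were at a handful of counts or at 0 in most libraries. Among the 12524 genes tested, 8.11% had all pax2a-high libraries below all pax2a-low libraries. In the edgeR fit, 5 of the 10 genes passed the low-count filter, and 3 of these (slc8a1b, atp2b1a and igfbp5a) were called lower at an adjusted p of 0.05, where 1.46% of all tested genes were (1.12% were called higher and 2.58% in either direction). In the opposite direction, 0 of the 10 lay wholly higher in pax2a-high libraries, where 21.4% of tested genes did. As the genes were chosen on this contrast, nothing is read from these counts. A gene that passed the filter only through the group in which it was high had to differ.

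**Figure D1:**
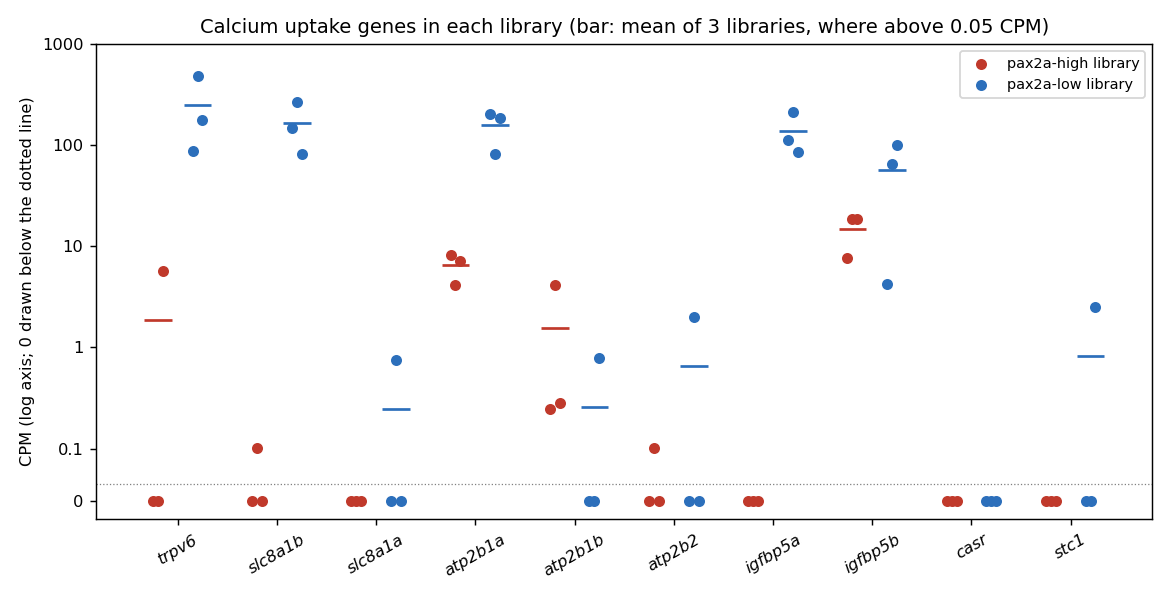
CPM (log axis) of the 10 calcium uptake genes in each of the 3 pax2a-high libraries, drawn left for each gene, and the 3 pax2a-low libraries, drawn right. Points are libraries, bars are group means where above 0.05 CPM, and points below the dotted line are at 0; trpv6, slc8a1b, atp2b1a and igfbp5a separate the groups, while casr is at 0 in all 6 libraries.

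The apical entry channel gene trpv6 (ENSDARG00000014496) had 0, 0 and 201 counts in pax2a-high libraries, against 456, 3890 and 2266 counts in pax2a-low libraries. Its level was thus 0, 0 and 5.64 CPM in pax2a-high, against 87.9, 483 and 177 CPM in pax2a-low libraries. The groups did not overlap, and 1 pax2a-high library alone held all of the pax2a-high counts. Means were 1.88 ± 3.26 CPM in pax2a-high, against 249 ± 207 CPM in pax2a-low libraries (SD, n = 3 each), with a fitted log2 fold change of -7.02 (SE 2.48), pax2a-high minus pax2a-low. Without pax2a-high replicate 3, the other pax2a-high libraries were at 0, and trpv6 was at least 1487-fold lower in them than in pax2a-low libraries, set against the floor of 3 counts per library. This bound, like the others given here, leaves out the spread between libraries.

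The trpv6 counts of pax2a-high replicate 3 came with few or no counts of some ionocyte genes and with counts of others. At the trpv6 proportions of the 3 pax2a-low libraries, 201 trpv6 counts would go with 88.7 to 257 igfbp5a counts, and 0 were observed. They would likewise go with 93.3 to 336 counts of slc8a1b, of which 0 were observed, and with 927 to 5491 counts of atp1b1b, the sodium-potassium pump subunit of these ionocytes, of which 4 were observed. For the pump genes atp2b1a and atp1a1a.3, 252 and 200 counts were observed, within the 34.4 to 465 and 46.7 to 253 counts that those proportions give. The atp2b1a level there, 7.08 CPM, lay between the 8.18 and 4.15 CPM of the other pax2a-high libraries, where trpv6 was at 0. Its place in that wide range thus says little about trpv6. Outside their ranges were foxi3b, with 4 counts against 182 to 763, and igfbp5b, with 656 counts against 9.70 to 114.

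For basolateral exit by exchange, slc8a1b (ENSDARG00000043406), a sodium-calcium exchanger gene of zebrafish ionocytes, had 0, 2 and 0 counts in pax2a-high libraries, against 762, 2161 and 1052 counts in pax2a-low libraries. It was close to absent from all pax2a-high libraries and present in all pax2a-low ones. Its level was 0.0337 ± 0.0584 CPM in pax2a-high, against 166 ± 94.5 CPM in pax2a-low libraries (SD, n = 3 each). The pooled rate was 5468-fold lower in pax2a-high libraries, with a 95% exact counting interval of 1513 to 45171 on the pax2a-low over pax2a-high ratio. Its paralog slc8a1a (ENSDARG00000013422), the exchanger gene known from the zebrafish heart, had 0 counts in all pax2a-high libraries and 0, 6 and 0 counts in pax2a-low libraries. That is 0.744 CPM in pax2a-low replicate 2, and no fold was computed from it.

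These data do not show which pump gene serves basolateral exit. The plasma membrane calcium pump gene atp2b1a (ENSDARG00000012684) was the only one of the 4 separating genes that stood above the floor in all 6 libraries. For atp2b1a there were 134, 82 and 252 counts in pax2a-high libraries, against 1056, 666 and 2382 counts in pax2a-low libraries. In CPM these are 8.18, 4.15 and 7.08 in pax2a-high, against 204, 82.6 and 186 in pax2a-low libraries, and no library of one group reached the other. Means were 6.47 ± 2.08 CPM in pax2a-high, against 157 ± 65.3 CPM in pax2a-low libraries (SD, n = 3 each), a fitted log2 fold change of -4.60 (SE 0.84), or 24.3-fold lower in pax2a-high libraries. With every library thinned to 6053741 counts, the total of the shallowest, atp2b1a had 35, 30 and 44 counts in pax2a-high, against 1056, 562 and 1348 counts in pax2a-low libraries.

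The other listed pump genes had few counts. For atp2b1b (ENSDARG00000007788), a paralog of atp2b1a, there were 4, 82 and 10 counts in pax2a-high libraries, against 0, 0 and 10 counts in pax2a-low libraries. Pax2a-high replicate 2 held most of these counts, at 4.15 CPM, and the groups overlapped. A related pump gene, atp2b2 (ENSDARG00000063433), had 0, 2 and 0 counts in pax2a-high libraries, against 0, 16 and 0 counts in pax2a-low libraries. Neither passed the low-count filter.

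Of the paired binding protein genes, igfbp5a (ENSDARG00000039264) had 0 counts in all 3 pax2a-high libraries and 582, 1716 and 1098 counts in pax2a-low libraries. Its level in the pax2a-low libraries was 112, 213 and 85.6 CPM, or 137 ± 67.2 CPM (SD, n = 3). Set against the floor of 3 counts per library, igfbp5a was at least 980-fold lower in pax2a-high libraries.

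In contrast, igfbp5b (ENSDARG00000025348), the paralog of igfbp5a, was detected in all 6 libraries. It had 126, 370 and 656 counts in pax2a-high, against 22, 528 and 1284 counts in pax2a-low libraries. In CPM these are 7.69, 18.7 and 18.4 in pax2a-high, against 4.24, 65.5 and 100.05 in pax2a-low libraries, so pax2a-low replicate 1 lay below every pax2a-high library and the other pax2a-low libraries above. Means were 14.9 ± 6.28 CPM in pax2a-high, against 56.6 ± 48.5 CPM in pax2a-low libraries (SD, n = 3 each), with a fitted log2 fold change of -1.92 (SE 1.33). Pax2a-low replicate 1, on which the overlap rests, was the shallowest library. It had 8392 genes detected, against 14215 and 11301 in pax2a-low replicates 2 and 3. Mitochondrially encoded rows took 49.0% of its counts, against 24.1 and 25.9%.

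Among the regulators, casr (ENSDARG00000013649), which encodes the calcium-sensing receptor, had 0 counts in all 6 libraries. That limits it to the floor given above in each library, 0.0842 to 0.183 CPM in pax2a-high, against 0.234 to 0.578 CPM in pax2a-low libraries. A stanniocalcin gene, stc1 (ENSDARG00000003303), had 0 counts in all pax2a-high libraries and 0, 0 and 32 counts in pax2a-low libraries. Its 2.49 CPM in pax2a-low replicate 3 rested on that library alone. Of the 4 genes listed as markers of the corpuscle of Stannius and parathyroid tissue, pth1a and pth1b were at 0 in all 6 libraries. The only counts of stc1l were 2 in pax2a-high replicate 2 (0.101 CPM). In contrast, gcm2 had 0 counts in all pax2a-high libraries and 0, 612 and 500 counts (0, 75.9 and 39.0 CPM) in pax2a-low libraries. All pax2a-low libraries held atp1b1b and foxi3b, also replicate 1, where gcm2 had 0 counts. The tissue or cell source of gcm2 was not tested. The genes trpv6, slc8a1b, atp2b1a and igfbp5a were high in the pax2a-low libraries, which also held the ionocyte markers atp1b1b and foxi3b. Macrophage marker sums and the mitochondrial share were higher in those libraries too. Any gene high in pax2a-low shares these libraries, so no cell source of these calcium uptake genes is read from this. The other 6 genes did not separate the groups.

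**Figure D2:**
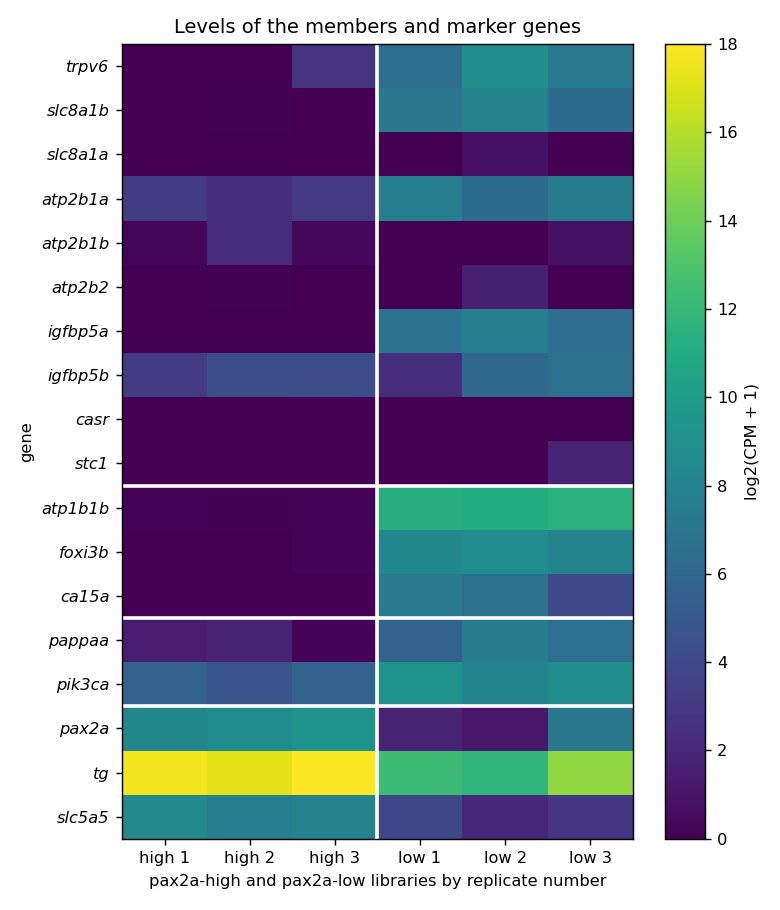
Level as log2(CPM + 1) of the 10 calcium uptake genes, 3 ionocyte markers (atp1b1b, foxi3b, ca15a), 2 IGF pathway genes (pappaa, pik3ca) and 3 thyroid genes (pax2a, tg, slc5a5), in pax2a-high (left) and pax2a-low (right) libraries. The 4 calcium uptake genes that separate the groups are high in the pax2a-low columns, as are other genes high there, atp1b1b and foxi3b among them. In pax2a-high replicate 3, trpv6 is also seen, at 5.64 CPM. Pax2a-low replicate 3 holds more pax2a (157 CPM) than the other pax2a-low libraries.

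Within the pax2a-low libraries the genes kept different proportions to each other. The ionocyte marker atp1b1b was nearly level, at 2401, 2226 and 2930 CPM, a highest-to-lowest ratio of 1.32. That ratio was 2.46 for atp2b1a, 2.49 for igfbp5a, 3.27 for slc8a1b, 5.49 for trpv6 and 23.6 for igfbp5b. Per 1000 atp1b1b counts, trpv6 had 36.6, 217 and 60.3 counts in pax2a-low replicates 1, 2 and 3. The corresponding values were 61.2, 120 and 27.98 counts for slc8a1b and 46.7, 95.7 and 29.2 counts for igfbp5a. Replicate 2 was highest for all 3 of these genes, and it was lowest for atp2b1a, with 84.8, 37.1 and 63.3 counts. The shared ionocyte marker foxi3b had the same order as slc8a1b and igfbp5a, with 139, 197 and 88.1 counts.

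Of the ratios taken to slc8a1b, that of igfbp5a was the steadiest. Per 1000 slc8a1b counts, the pax2a-low libraries held 764, 794 and 1044 igfbp5a counts, a 1.37-fold range. The range was 1.93-fold for foxi3b, 3.60-fold for trpv6 and 7.35-fold for atp2b1a. These are descriptions of 3 libraries, and the replicates have no order. Of the sodium-chloride cotransporting ionocyte markers, slc12a10.2, slc4a4b and clcn2c also stood highest in pax2a-low replicate 2. The fourth, atp1b2b, had 0, 118 and 3 counts in pax2a-high libraries and 0 in every pax2a-low library. The class had sums of 13.3 to 30.4 CPM in pax2a-high libraries, against 3.08, 3858 and 12.54 CPM in pax2a-low libraries. Markers of the proton-secreting class summed to 0.733 to 24.3 CPM in pax2a-high libraries, against 220, 298 and 45.7 CPM in pax2a-low libraries.

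**Figure D3:**
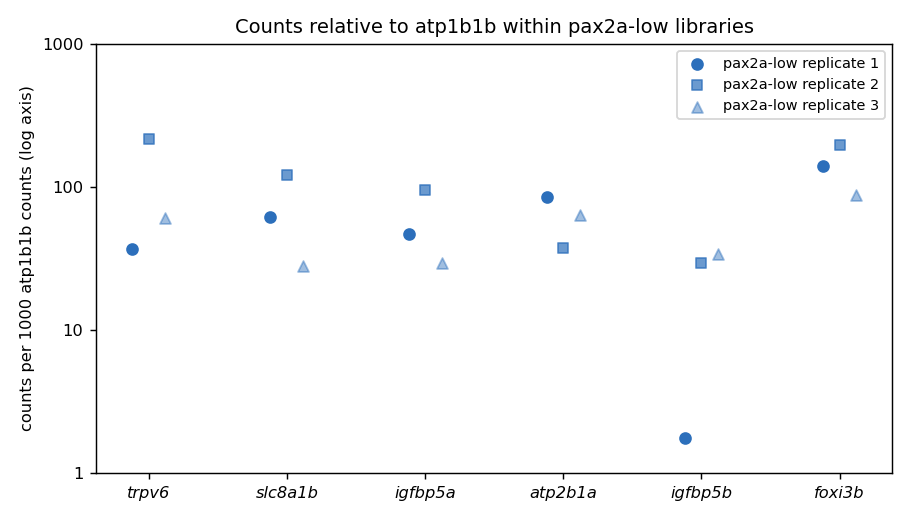
Counts of 5 calcium uptake genes and of foxi3b per 1000 counts of atp1b1b (log axis) in the 3 pax2a-low libraries, one marker shape per library. Replicate 2 is highest for trpv6, slc8a1b, igfbp5a and foxi3b and lowest for atp2b1a, and igfbp5b spreads from 1.77 to 34.1 counts.

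The profiles nearest to trpv6 and to igfbp5a over the 6 libraries were ranked among 9028 genes with a mean of at least 5 CPM. The chosen calcium uptake genes, and genes named only after a clone or an identifier, were left out of this ranking. Distance was the root mean square difference of centred log2(CPM + 1). It takes in the group difference on which trpv6 and igfbp5a were chosen. Genes near 0 in pax2a-high and high in pax2a-low libraries thus rank near, so no shared regulation or cell source is read from the ranking. Nearest to igfbp5a were ftr83, a finTRIM gene (0.25), rap1gap2a, which encodes a GTPase-activating protein (0.29), the ammonium transporter gene rhcga (0.34), adgrf6, which encodes an adhesion G-protein-coupled receptor (0.49), and the calcium-binding protein gene s100a11 (0.50). Nearest to trpv6 were ftr83 (0.85), lzts2a (0.96), rasgrp4 (0.97), s100a11 (0.97) and greb1 (1.01). The distances to trpv6 were all larger than those to igfbp5a. Of the 5 genes nearest to trpv6, 3 also had counts in pax2a-high replicate 3, namely lzts2a with 208, rasgrp4 with 70 and ftr83 with 9, and s100a11 and greb1 had 0. In the other pax2a-high libraries lzts2a had 2 and 0 counts, rasgrp4 had 0 and 16, and ftr83 had 0 in both.

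Beyond the chosen genes, 4 lists of related genes were read from the same edgeR fit, adjusted over all tested genes. None of the calcium transport and store genes passed, where 2.58% of all tested genes did in either direction, so little is read from this. This list of channels, pumps, exchangers and buffers had 78 genes, of which 76 were found, 4 of them at 0 in every library, and 44 were tested. By edgeR, 0 of 44 were called in either direction (4 higher and 3 lower at an unadjusted p under 0.05, which 9.76% of all tested genes passed as higher and 4.6% as lower). With DESeq2, which had 72 of the list in its fit, 2 were higher (ryr1a and slc24a3, named for being called there). With limma, on 44 genes, 1 was lower (atp2b4). Over all genes, DESeq2 called 962 higher and 500 lower of 23396 in its fit, and limma 99 higher and 277 lower of 12524. The median log2 fold change was -0.20, beside 0.35 over all tested genes.

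Among its members, atp2b4, another plasma membrane calcium pump gene, was at 85.8 ± 23.8 CPM in pax2a-high, against 272 ± 17.4 CPM in pax2a-low libraries (SD, n = 3 each; log2 fold change -1.66 with SE 0.54, edgeR adjusted p = 0.137). The groups did not overlap. A calmodulin gene, calm2a, was at 6.96 ± 4.42 CPM in pax2a-high, against 70.6 ± 14.7 CPM in pax2a-low libraries (SD, n = 3 each; edgeR adjusted p = 0.193). The calreticulin gene calr3a, for a calcium-binding chaperone of the endoplasmic reticulum, was at 99.0 ± 47.3 CPM in pax2a-high, against 12.1 ± 5.34 CPM in pax2a-low libraries (SD, n = 3 each; edgeR adjusted p = 0.131).

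**Figure D4:**
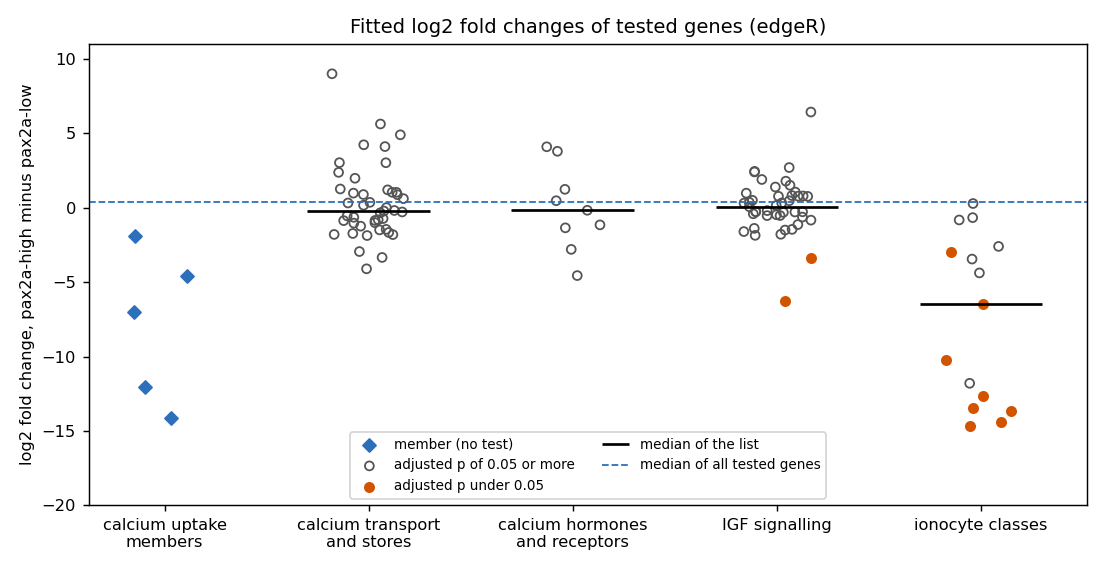
Fitted log2 fold change, pax2a-high minus pax2a-low, of the 5 calcium uptake genes in the fit (diamonds, no test) and of the tested genes of 4 lists, with list medians (black bars) and the median of all tested genes (dashed line, 0.35). Filled circles passed an edgeR adjusted p of 0.05, 2 in the IGF list and 8 in the ionocyte list; fitted values of genes with no counts in a group depend on the prior count.

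Calcium hormone and receptor genes were mostly undetected or untested. Of 36 listed, 33 were found, 7 were at 0 in every library and 9 were tested. By edgeR 0 of these 9 were called, where 2.58% of all tested genes were, so little is read from this. At an unadjusted p under 0.05, 0 were higher and 1 lower, beside 9.76% higher and 4.6% lower of all tested genes. Of 26 in its fit, DESeq2 called 2 lower (calcrla and gcm2, untested by edgeR), and limma called 1 of 9 lower (vdrb). Without pax2a-low replicate 1, edgeR called 1 lower. The vitamin D receptor gene vdrb had 22.8, 18.2 and 12.7 CPM in pax2a-high, against 136, 99.4 and 139 CPM in pax2a-low libraries. Its groups were apart (log2 fold change -2.80 with SE 0.81, edgeR adjusted p = 0.087). The gene cyp24a1, for the enzyme that inactivates vitamin D, had 49.8, 84.5 and 43.5 CPM in pax2a-high, against 0, 0 and 10.29 CPM in pax2a-low libraries (log2 fold change 4.09 with SE 1.95, edgeR adjusted p = 0.354). The pax2a-low level of cyp24a1 came from replicate 3 alone, and without that library the gene was called higher (edgeR adjusted p = 0.0026). It then passed the low-count filter only through the pax2a-high libraries and had to differ, so little is read from that call. Of the 14 alternatives, cyp24a1 passed in 1. For the prolactin receptor gene prlrb, levels were 36.3 ± 18.3 CPM in pax2a-high, against 92.5 ± 14.4 CPM in pax2a-low libraries (SD, n = 3 each; edgeR adjusted p = 0.567).

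In the IGF signalling list, 2 of 43 tested genes fell in pax2a-high libraries and 0 rose by edgeR, where 1.46% of all tested genes were called lower and 1.12% higher. At an unadjusted p under 0.05, 2 were higher and 3 lower, beside 9.76% higher and 4.6% lower of all tested genes. With DESeq2, of 51 in its fit, 1 was higher (igfbp2b) and 3 were lower, and with limma, of 43, 0 were higher and 2 lower. Without pax2a-low replicate 3, edgeR called 2 higher and 4 lower. The list held 54 genes, all found, and its median log2 fold change was 0.07, beside 0.35 over all tested genes. The pappaa gene encodes a secreted protease that in zebrafish cleaves IGF binding proteins, Igfbp5a among them. It had 28, 50 and 4 counts in pax2a-high, against 268, 1570 and 1184 counts in pax2a-low libraries. Every pax2a-high library lay below every pax2a-low one, at 1.45 ± 1.23 CPM in pax2a-high, against 113 ± 73.8 CPM in pax2a-low libraries (SD, n = 3 each; log2 fold change -6.28 with SE 1.31, edgeR adjusted p = 0.014). With pax2a-high replicate 1 left out it no longer passed (edgeR adjusted p = 0.091), nor with pax2a-low replicate 2 left out (edgeR adjusted p = 0.152).

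The other IGF pathway gene that fell was pik3ca, which encodes the catalytic subunit of a phosphoinositide 3-kinase downstream of the IGF receptor. It was at 48.6, 23.98 and 52.3 CPM in pax2a-high, against 578, 284 and 425 CPM in pax2a-low libraries. The groups were apart in all 6 libraries (log2 fold change -3.36 with SE 0.57, edgeR adjusted p = 0.0028). The gene also passed in each of the 14 alternatives, with adjusted p of 2.42e-06 to 0.042. The sums of shared ionocyte and of macrophage markers and the mitochondrial share moved with the same libraries, though no macrophage marker was called by edgeR. Their part in both results was not tested.

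Of the ionocyte list, 8 of 15 tested genes fell and 0 rose by edgeR. Over all tested genes, 1.46% were called lower and 1.12% higher. At an unadjusted p under 0.05, 0 were higher and 9 lower, beside 9.76% higher and 4.6% lower of all tested genes. DESeq2, with 25 in its fit, called 0 higher and 9 lower, and limma, with 15, 0 higher and 6 lower. The DESeq2 calls included foxi3a, rhcgb and slc4a1b, which edgeR did not test and which had 0 counts in pax2a-high libraries. The list has 25 genes and a median log2 fold change of -6.47, beside 0.35 over all tested genes. Several of its genes were known from earlier results on these libraries, so it is no independent evidence of direction. The ammonium transporter gene rhcga, with 0 counts in pax2a-high, against 368, 953 and 918 counts in pax2a-low libraries, was at least 622-fold lower in pax2a-high libraries (edgeR adjusted p = 0.0008). The forkhead factor gene foxi3b, the pump subunit gene atp1b1b, the ammonium transporter gene rhbg and the carbonic anhydrase gene ca15a also fell (edgeR adjusted p of 4.34e-06, 8.79e-10, 1.24e-05 and 0.00099). Summed over the pax2a-high libraries, rhcga, rhbg and ca15a had 0 counts, foxi3b had 4 and atp1b1b had 8. Such genes passed the low-count filter only through the pax2a-low libraries and had to differ, so these p-values are no test of direction.

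The remaining 3 ionocyte genes that fell belong to families of tandem copies, whose separate values are uncertain because reads could be split between copies. The sodium-potassium pump gene atp1a1a.2 was at 2.80 ± 2.91 CPM in pax2a-high, against 3414 ± 1625 CPM in pax2a-low libraries (SD, n = 3 each; edgeR adjusted p = 0.014). Its copy atp1a1a.3 was at 0.916, 1.11 and 5.62 CPM in pax2a-high, against 36.6, 608 and 41.0 CPM in pax2a-low libraries (edgeR adjusted p = 0.042). The other listed copies overlapped between the groups and were not called. Copy atp1a1a.1 was at 399 ± 107 CPM in pax2a-high, against 328 ± 216 CPM in pax2a-low libraries (SD, n = 3 each, edgeR adjusted p = 0.944). For atp1a1a.4 and atp1a1a.5 the edgeR adjusted p were 0.957 and 0.737. The potassium channel gene kcnj1a.1 was at 24.3 ± 14.9 CPM in pax2a-high, against 188 ± 19.97 CPM in pax2a-low libraries (SD, n = 3 each; edgeR adjusted p = 0.044). Calls were lost without pax2a-high replicate 3, pax2a-low replicate 1 or pax2a-low replicate 3 for atp1a1a.2 (edgeR adjusted p of 0.242, 0.149 and 0.141). Those on atp1a1a.3 were lost without pax2a-high replicate 1 or any single pax2a-low library (edgeR adjusted p of 0.051 to 0.277), and those on kcnj1a.1 without the first or the second pax2a-high library or pax2a-low replicate 2 (edgeR adjusted p of 0.192, 0.053 and 0.110).

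Leaving out single libraries changed the fitted value of trpv6 most among the 5 calcium uptake genes in the fit. Its log2 fold change ran from -14.59 without pax2a-high replicate 3 to -6.16 without pax2a-low replicate 2. For slc8a1b the range was -14.31, without pax2a-high replicate 2, to -11.36, for igfbp5a -14.47 to -13.73 and for atp2b1a -4.94 to -4.33. Without pax2a-low replicate 3, the pax2a-low library with the most pax2a, the values were -7.25 for trpv6, -12.47 for slc8a1b, -4.53 for atp2b1a, -14.47 for igfbp5a and -1.26 for igfbp5b. The igfbp5b value, from -2.44 to -1.26, stayed negative with each library left out while its groups overlapped.

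**Figure D5:**
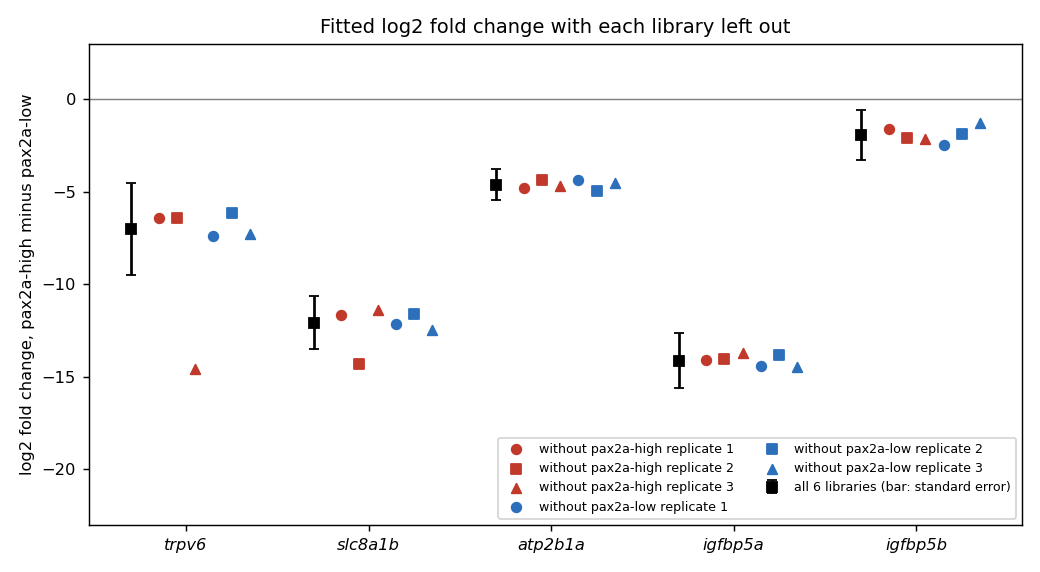
Fitted log2 fold change, pax2a-high minus pax2a-low, of the 5 calcium uptake genes in the edgeR fit with all 6 libraries (black squares, bars are standard errors) and with each library left out (red for pax2a-high, blue for pax2a-low). The widest spread is that of trpv6, which reaches -14.59 without pax2a-high replicate 3; values where a group has no counts depend on the prior count and are no bounds.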

How the data were processed

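Per the series design text and the submitters' processing notes, the authors aligned reads to GRCz11 with HISAT2 and assigned them to exons with featureCounts. Tool versions, strandedness and the handling of multi-mapping reads are not given in the sources used here. Deposited were raw integer counts of reads for each gene. Sample titles gave the group and replicate of each library.

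From the counts, differential expression was computed in R 4.3.3 by edgeR 4.0.16 (TMM scaling, filterByExpr, robust quasi-likelihood fits on the group, Benjamini-Hochberg adjustment over 12524 genes, threshold 0.05). CPM are counts per 1000000 of the TMM-scaled library size. Standard errors come from the quasi-likelihood statistic. The floor was 3 counts, and pooled ratios have 95% exact binomial intervals.

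The members and the lists were chosen with earlier results of these data known. Named genes are the members, pax2a, list genes that passed (otherwise the 3 with the smallest p) and the 5 nearest profiles of trpv6 and igfbp5a. Genes shown for context, and those called only by another tool, were named after their values were seen. List symbols absent from the table were sought as RefSeq synonyms (assembly GRCz12tu). Of the pathway lists, 187 of 193 genes were found, 2 of them that way.

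Markers of 14 cell types were summed as CPM. Calcitonin, neuron, cardiac muscle, hair cell, endothelium, erythrocyte and potassium-secreting ionocyte markers summed to at most 4.04, 120, 20.6, 2.53, 27.2, 10.5 and 37.3 CPM in pax2a-high and 0, 12.2, 3.23, 30.3, 26.6, 44.4 and 203 CPM in pax2a-low libraries, and keratinocyte markers to 625 to 2165 and 1049 to 3101 CPM. Alternatives were DESeq2 1.42.0, limma 3.58.1 (voom with quality weights), DESeq2 size factors, library sizes without the 37 mitochondrial rows, no count filter, 5 CPM in 3 libraries, a replicate block, thinning to the shallowest library, and leaving out each library.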

Additional observations from a re-analysis of the deposited data

How the results depend on the processing

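The edgeR fit called 140 genes higher and 183 lower in pax2a-high libraries. Counts moved to 328 higher and 299 lower with no count filter, to 962 and 500 with DESeq2, to 277 lower with limma, to 73 higher with at least 5 CPM in 3 libraries, and to 425 higher with the replicate block. Leaving out a library gave 40 to 270 higher and 120 to 253 lower. Of the calcium uptake genes, 3 to 4 were called lower and 0 higher throughout. The gene trpv6 was called with DESeq2, limma, the replicate block, or without pax2a-high replicate 2 or 3. The calcium uptake genes were chosen on this contrast, so nothing is read from their steady calls. The calcium transport list moved to 2 higher with DESeq2 and 1 lower with limma, and the hormone list to 1 lower with no filter, 2 with DESeq2 and 1 with limma. The IGF list moved to 1 higher with DESeq2 or the replicate block. Leaving out a library gave 0 to 1 lower and 0 to 1 higher in the hormone list, 1 to 4 lower and 0 to 2 higher in the IGF list, and 6 to 8 lower in the ionocyte list. Among ionocyte genes, atp1a1a.2 no longer passed with limma, no filter or the replicate block (adjusted p of 0.086, 0.126 and 0.307), atp1a1a.3 with limma (0.131), while DESeq2 gave it no adjusted p, and kcnj1a.1 with the 5 CPM filter or DESeq2 (0.058 and 0.098). The fitted log2 fold changes given for named genes kept their sign in the 14 alternatives. The count columns carry a set number in both groups, and what a set shared is not stated. Deviations from the group means correlated at 0.032 to 0.079 between same-numbered libraries, each the highest for its library. These correlations are very small, and deviations within a group are not independent, so no pairing is read from them. The main results were fitted without the replicate block, so a pairing by set, if there was one, is not modelled in them. Under the block the trpv6 log2 fold change was -10.63. DESeq2 size factors moved the median log2 fold change of all genes by -0.11, limma by 1.16 and the replicate block by 1.06. At 3 counts, genes below about 0.58 CPM in the shallowest library were under the floor.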
